A study of Mus musculus with 3 samples.

Results

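The small leucine-rich proteoglycans are secreted proteins of connective tissue that carry a row of leucine-rich repeats and, in many members, sulfated sugar chains. They bind to collagen fibrils, limit how thick the fibrils grow and how closely they pack, and hold growth factors such as transforming growth factor beta in the matrix. In skin they are made mainly by fibroblasts of the dermis, and loss of decorin makes mouse skin fragile. A set of 10 of these genes, picked by symbol, is described here: Dcn, Bgn, Aspn, Lum, Fmod, Prelp, Kera, Omd, Ogn and Podn. All 10 were found among the 21877 gene rows that the tables of the 3 ages share.

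RNA had been sequenced from skin of FVB mice, an inbred albino strain, at 3 ages: E18.5, which is shortly before birth, P3, which is 3 days after it, and 10 weeks, when mice are adult. The column headings call the animals WT, and the labels name no treatment or allele. The sex of the animals is not stated, and sex-linked RNA differed between E18.5 and the 2 later ages, as given with Bgn below. The series design gives 2 biological replicates per age, whereas the deposited tables hold 1 averaged value per gene and age. No SD, interval or p-value could therefore be given, no difference below was set against a spread between animals, and the sequencing depth is unknown.

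Values are FPKM, fragment numbers scaled to transcript length and library size, which allow levels of different genes to be compared within an age. Differences between ages are log2 ratios with 1 FPKM added to both values and the later age on top, so small levels give muted differences. Where the size of this difference was at least 1, or 2-fold, the gene was called higher or lower. Genes that reached 1 FPKM at no age were left out. Of the 10 genes, 9 stood at 1 FPKM or more at all 3 ages. The tenth, Kera, was under it at P3 and passed through its E18.5 and 10-week levels. Markers of skin were present: all 8 keratinocyte markers and all 11 fibroblast markers were at 1 FPKM or more at each age, whereas 7 of the 9 cartilage and bone markers found were under it at E18.5 and P3 and 8 at 10 weeks.

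Stretches of promoter are shown first for 4 members: Ogn and Prelp, which were much higher in adult skin, and Aspn and Bgn, which were not. Ogn and Aspn also lie in the same gene cluster on chromosome 13. RefSeq's promoter table for GRCm38.p6, a later build than that of the expression tables, held 8 of the 10 members. It had no entry for Dcn and Lum, whose promoters were therefore not examined. The 250 bases before each start site are printed 5′ to 3′ on the strand of the gene. Capitals mark matches, on either strand, to 5 motifs: the TATA box TATAAA, the CCAAT box CCAAT, the GC box GGGCGG, the AP-1 element TGANTCA and the SMAD element CAGAC. The windows are chr13:49607765-49608014 on the plus strand (Ogn), chr1:133921402-133921651 on the minus strand (Prelp), chr13:49544193-49544442 on the plus strand (Aspn) and chrX:73483351-73483600 on the plus strand (Bgn).
Ogn: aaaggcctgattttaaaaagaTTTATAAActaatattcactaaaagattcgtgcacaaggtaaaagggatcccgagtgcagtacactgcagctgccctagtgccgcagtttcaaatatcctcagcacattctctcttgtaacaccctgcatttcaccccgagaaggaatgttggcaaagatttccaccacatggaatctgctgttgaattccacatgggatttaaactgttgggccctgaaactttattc
Prelp: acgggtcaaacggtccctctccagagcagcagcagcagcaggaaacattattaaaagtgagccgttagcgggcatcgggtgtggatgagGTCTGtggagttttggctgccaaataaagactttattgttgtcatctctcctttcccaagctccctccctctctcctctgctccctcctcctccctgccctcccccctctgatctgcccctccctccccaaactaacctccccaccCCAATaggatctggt
Aspn: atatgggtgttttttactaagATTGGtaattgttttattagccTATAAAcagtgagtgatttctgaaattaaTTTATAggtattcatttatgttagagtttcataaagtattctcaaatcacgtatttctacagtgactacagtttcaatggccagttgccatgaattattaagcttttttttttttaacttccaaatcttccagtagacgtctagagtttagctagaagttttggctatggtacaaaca
Bgn: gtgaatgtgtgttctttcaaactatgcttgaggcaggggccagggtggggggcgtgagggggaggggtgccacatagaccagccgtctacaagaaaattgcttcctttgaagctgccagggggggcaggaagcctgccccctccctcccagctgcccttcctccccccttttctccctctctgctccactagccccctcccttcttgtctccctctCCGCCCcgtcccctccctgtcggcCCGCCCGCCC

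The 4 windows differed in base composition. GC content was 42.0% for Ogn, 55.6% for Prelp, 30.0% for Aspn and 64.4% for Bgn, against a median of 52.4% over the 32851 windows of the table. The Bgn window held 3 matches to the GC box, 2 of which overlap each other within the last 10 bases before the start. The GC box was present in 32.7% of all windows. TATAAA was present on both strands of the Ogn window, where the copies overlap and lie 222 to 229 bases before the start. The Aspn window held it at 202 to 207 bases and, on the other strand, at 173 to 178 bases before the start, with 1 CCAAT box at 225 to 229 bases. TATAAA was in 12.4% of all windows. Prelp had 1 CCAAT box, 11 to 15 bases before the start, and 1 SMAD element; 33.8% and 42.2% of all windows held these. The AP-1 element, in 6.75% of all windows, was in none of the 9 windows of the 8 members, of which Podn has 2. A match describes letters only, and no match says only that these letters are not in the window.

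The family as a whole was lowest in newborn skin and highest in adult skin. The summed level of the 10 genes was 1308 FPKM at E18.5, 492 FPKM at P3 and 3172 FPKM at 10 weeks. This was 0.220%, 0.0814% and 0.484% of the FPKM of all genes. At P3, 4 of the 10 were called lower than at E18.5 and 0 higher, where 9.42% of all 14653 genes compared were lower and 9.56% higher. At 10 weeks, 8 of the 10 were higher than at P3 and 0 lower, where 19.8% of 14655 genes were higher and 9.98% lower. Compared with E18.5, 6 were higher at 10 weeks and 0 lower, where 16.1% of 14659 genes were higher and 6.92% lower. The median log2 difference of the 10 was -0.70 at P3 against E18.5, where that of all genes was 0.03. It was 2.09 at 10 weeks against P3 (all genes 0.14) and 1.22 at 10 weeks against E18.5 (all genes 0.22). In RNA of a whole tissue, fewer cells of a type and less RNA per cell cannot be told apart. Because FPKM is relative to the whole library, a change in the RNA of other cells also moves these values.

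**Figure D1:**
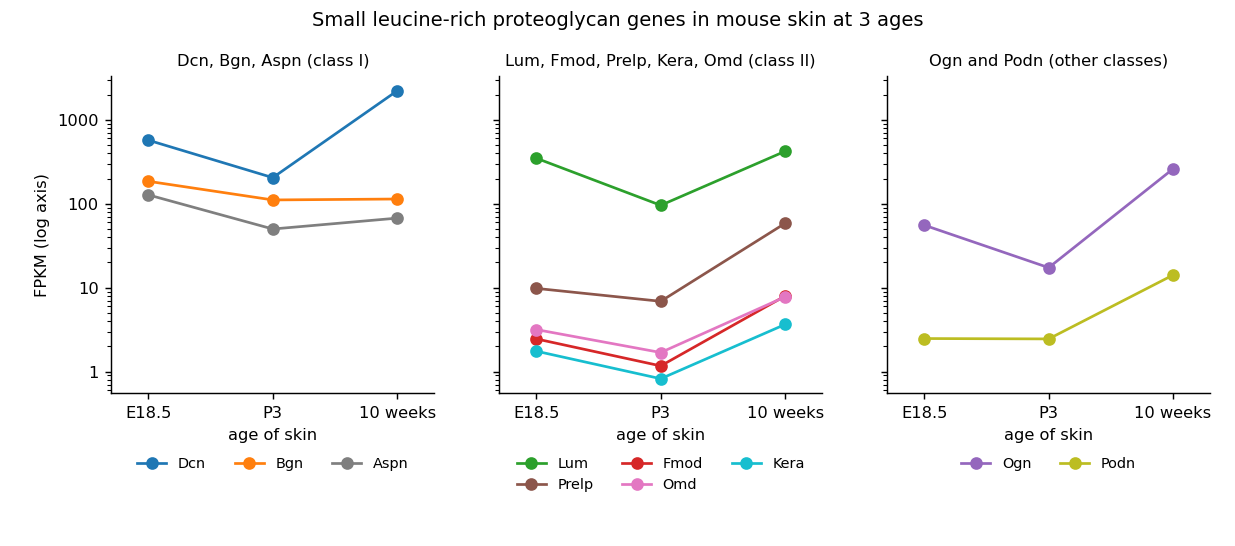
FPKM on a log axis at E18.5, P3 and 10 weeks for the 10 genes, 1 averaged value per age, in panels by protein class. Most lines form a V with its low point at P3, from which Dcn reached 2217 FPKM at 10 weeks, while Bgn and Aspn stayed below their E18.5 levels.

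The class I members, Dcn, Bgn and Aspn, are closely related proteins, of which Dcn took a course apart from the other two. Dcn encodes decorin, the proteoglycan with a single dermatan or chondroitin sulfate chain that decorates collagen fibrils. It stood at 572 FPKM in E18.5 skin, 205 in P3 skin and 2217 in 10-week skin. It ranked 168th, 397th and 28th among all genes by FPKM. Its log2 difference was -1.48 at P3 against E18.5, 3.43 at 10 weeks against P3 and 1.95 at 10 weeks against E18.5, so that it was called in all 3 comparisons. Decorin had the highest level of the family at every age.

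Bgn encodes biglycan, which usually carries a pair of such chains and, once released from the matrix, can signal through Toll-like receptors. It stood at 185 FPKM in E18.5 skin, 111 in P3 skin and 114 in 10-week skin. Its differences of -0.73, 0.04 and -0.70 were all under the 2-fold threshold, and the middle one, of 10 weeks against P3, was below 0 under each of the 3 other scalings tried (-0.05 to -0.08). Dcn thus exceeded Bgn 3.09-fold in E18.5 skin, 1.84-fold in P3 skin and 19.5-fold in 10-week skin. These are ratios of the averaged values of each age, which scaling one age against another does not move. Bgn is the only X-linked member (mm9 chromosome X, 70728974 to 70741275), and the ages differed in sex-linked RNA. Xist, the RNA of the inactive X chromosome, was at 0.0433 FPKM in E18.5 skin, 64.6 in P3 skin and 73.0 in 10-week skin, and the Y-linked Ddx3y was at 24.1 FPKM, 0.0218 FPKM and listed at 0. The median log2 difference of 479 X-linked genes was -0.13 at P3 against E18.5, where that of autosomal genes was 0.04. The Y-linked RNA was thus present at E18.5 and Xist at P3 and 10 weeks. For every gene, age and sex-linked RNA change together in the comparisons against E18.5, so their parts cannot be told apart there. The part of sex in the Bgn values was not tested.

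Aspn encodes asporin, named for a run of aspartic acid residues, which lacks the usual sugar attachment site and binds collagen and transforming growth factor beta. It stood at 127 FPKM in E18.5 skin, 50.02 in P3 skin and 67.4 in 10-week skin. It was called lower in P3 than in E18.5 skin (log2 difference -1.33) and was not called at 10 weeks against P3 (0.42). At 10 weeks against E18.5 its difference of -0.91 was just under the threshold with the deposited values and past it under each of the 3 other scalings tried (-1.05 to -1.21). Asporin and biglycan were the only members with a negative difference between 10 weeks and E18.5, except that Lum joined them with upper quartile scaling (-0.03).

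Of the class II members, which often bear keratan sulfate, Lum was far the most abundant. Lumican, its product, helps to space collagen fibrils and keeps the cornea clear. Lum stood at 349 FPKM in E18.5 skin, 95.8 in P3 skin and 422 in 10-week skin. It had the largest fall of the family at P3 (log2 difference -1.85), was higher again at 10 weeks than at P3 (2.13), and at 10 weeks against E18.5 differed by 0.27. Lum per Dcn was 0.610 in E18.5 skin, 0.468 in P3 skin and 0.190 in 10-week skin. At 10 weeks lumican was thus within 2-fold of its E18.5 level, and decorin was not.

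Prelp encodes a proteoglycan with a basic, heparin-binding end that can link basement membranes to collagen beneath. It stood at 9.81 FPKM in E18.5 skin, 6.88 in P3 skin and 58.4 in 10-week skin. It was not called at P3 (-0.46), but was called higher at 10 weeks than at P3 (2.91) and than at E18.5 (2.46). The last is the largest difference of the 10 members between the adult and E18.5, except with a pseudocount of 5 FPKM, where Ogn (2.129) was above Prelp (2.099). By rank among all genes it was 6881st in E18.5 skin, 8479th in P3 skin and 1658th in 10-week skin.

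The other class II genes were low throughout. Fmod encodes fibromodulin, which binds collagen near lumican's site and is abundant in tendon. It stood at 2.45 FPKM in E18.5 skin, 1.17 in P3 skin and 7.95 in 10-week skin. Omd encodes osteomodulin, or osteoadherin, known from bone and tooth, and stood at 3.17, 1.69 and 7.77 FPKM. Kera encodes keratocan, the keratan sulfate proteoglycan of the cornea, and stood at 1.75, 0.822 and 3.65 FPKM. All 3 were called higher at 10 weeks than at P3, with log2 differences of 2.04 for Fmod, 1.71 for Omd and 1.35 for Kera. None was called at P3 against E18.5 (-0.67, -0.63 and -0.59). In adult against E18.5 skin, Fmod (1.37) and Omd (1.07) were called and Kera (0.76) was not.

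These calls of low genes rest on small values. With a pseudocount of 5 FPKM the differences of Omd and Kera at 10 weeks against P3 were 0.93 and 0.57, and those of Fmod and Omd at 10 weeks against E18.5 were 0.80 and 0.64, all under the threshold. With a pseudocount of 0.1 FPKM, Fmod and Kera also passed it as lower at P3 (-1.01 and -1.005), and Kera as higher at 10 weeks than at E18.5 (1.02). Tendon and fascia markers, of which 7 of 8 reached 1 FPKM at some age and 4 were higher at 10 weeks than at P3, summed to 30.6 FPKM in E18.5 skin, 29.1 in P3 skin and 114 in 10-week skin. Most of the 10-week sum was Tnxb (16.4, 8.56 and 41.0 FPKM) and Cilp (2.52, 2.61 and 35.8 FPKM). Tnmd, of tendon cells, was at 6.46, 9.46 and 16.3 FPKM and was not called at 10 weeks against P3 (0.73). The part of tendon and fascia in the adult levels of Fmod, Omd and Kera was not tested.

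Ogn, of class III, and Podn, of class V, complete the set. Ogn encodes osteoglycin, also called mimecan, a small member found in many connective tissues. It stood at 55.6 FPKM in E18.5 skin, 17.3 in P3 skin and 260 in 10-week skin. It was lower in P3 than in E18.5 skin (-1.63) and higher at 10 weeks than at P3 (3.83), the largest change in the family, and than at E18.5 (2.21). Podn encodes podocan, a larger relative that restrains growth of vascular smooth muscle cells. It stood at 2.48 FPKM in E18.5 skin, 2.45 in P3 skin and 14.1 in 10-week skin, and its difference of -0.01 at P3 was the smallest of the family. At 10 weeks it was called higher than at P3 (2.13) and than at E18.5 (2.12).

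**Figure D2:**
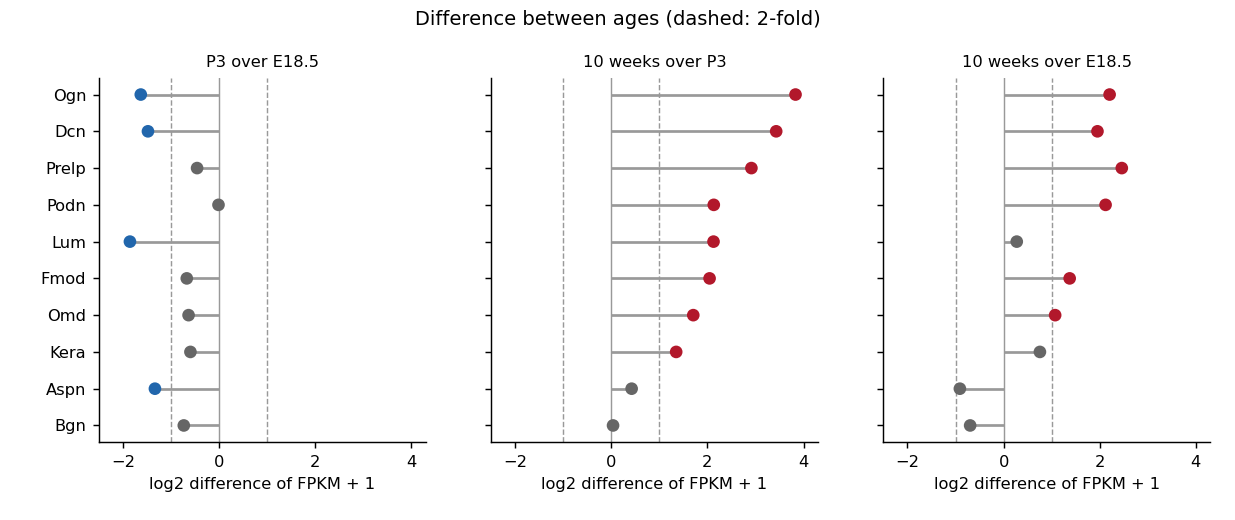
Log2 differences of FPKM + 1 for each gene in the 3 comparisons, ordered by 10 weeks over P3, with red points called higher, blue points called lower, grey points not called and dashed lines at 2-fold. Ogn, Dcn, Lum and Aspn were lower at P3, and at 10 weeks all but Aspn and Bgn were higher than at P3.

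The mixture of the family's RNA changed with these courses. Dcn made up 43.7% of the summed FPKM of the 10 genes in E18.5 skin, 41.6% in P3 skin and 69.9% in 10-week skin. Bgn made up 14.1%, 22.6% and 3.59%, and Aspn 9.74%, 10.2% and 2.13%. Lum held 26.7%, 19.5% and 13.3%, whereas Ogn held 4.25%, 3.52% and 8.20%. Bgn exceeded Lum in newborn skin alone, and in adult skin Ogn took the place after Dcn and Lum. The other 5 genes together held little of the sum at any age, of which Prelp held the most at 10 weeks (1.84%).

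**Figure D3:**
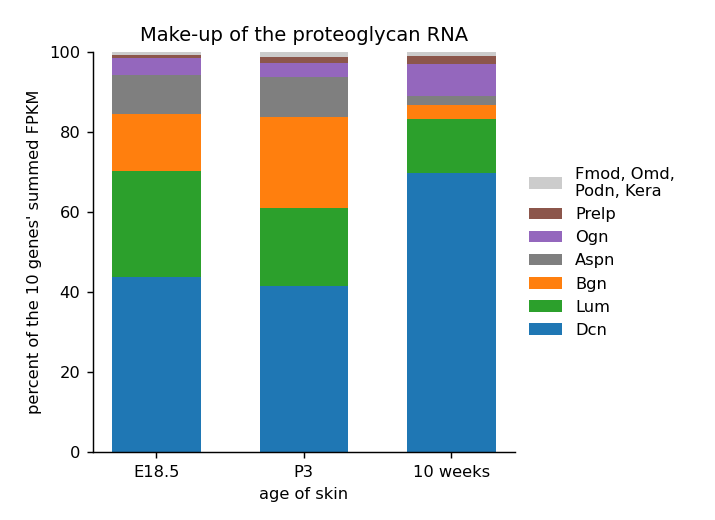
Percent of the summed FPKM of the 10 genes held by each at E18.5, P3 and 10 weeks, stacked to 100. Dcn held 43.7%, 41.6% and 69.9%, while the bands of Bgn and Aspn were thin at 10 weeks, at 3.59% and 2.13%.

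The order of levels from high to low was Dcn, Lum, Bgn, Aspn, Ogn, Prelp, Omd, Podn, Fmod and Kera at E18.5. At P3 Bgn stood above Lum and Podn above Omd. At 10 weeks the order was Dcn, Lum, Ogn, Bgn, Aspn, Prelp, Podn, Fmod, Omd and Kera, so that Ogn passed both Bgn and Aspn. The highest gene exceeded the lowest 327-fold in E18.5 skin, 249-fold in P3 skin and 608-fold in 10-week skin. Neighbours such as Fmod and Podn at E18.5 (2.45 and 2.48 FPKM) or Fmod and Omd at 10 weeks (7.95 and 7.77 FPKM) stood close together, and without a spread between animals their order has no check.

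Most members lie next to related genes, and neighbours stood at very different levels. Dcn, Lum, Kera and the related Epyc, of epiphycan, follow each other on mm9 chromosome 10. Dcn spans 96942134 to 96980796, Lum 97028135 to 97035337 and Kera 97069839 to 97076322. At 10 weeks Dcn was at 2217 FPKM, Lum at 422 and Kera at 3.65, and Epyc, a cartilage gene, was at 0.0758 FPKM in E18.5 skin, 0.0645 in P3 skin and 1.49 in 10-week skin. On chromosome 1, Prelp (135806882 to 135817978) and Fmod (135934092 to 135944854) lie close together, and the level of Prelp was 4.001 times that of Fmod at E18.5, 5.88 times at P3 and 7.35 times at 10 weeks. Podn lies alone among the members on chromosome 4 (107687398 to 107704695).

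Aspn, Omd, Ogn and the related Ecm2 are listed with 1 shared span on chromosome 13 (49559428 to 49748100). The span also holds Cenpp, a centromere protein gene on the opposite strand that overlaps them all. The strand setting of the counting is not given in the sources used here, so reads of Cenpp and of these genes may not have been told apart in full. Cenpp was at 8.13 FPKM in E18.5 skin, 7.79 in P3 skin and 2.87 in 10-week skin, lower in the adult, while Ogn, Omd and Ecm2 were higher. Ecm2 stood at 3.13, 3.07 and 32.9 FPKM, a log2 difference of 3.06 at 10 weeks against P3. Of the 4 expressed relatives outside the set, Ecm2 and Epyc (1.23) were the 2 called higher then, and 0 were called at P3. Epyc passed the minimum of 1 FPKM through its 10-week level alone, so the filter itself favours its call as higher. Chadl, a chondroadherin-like gene that also passed the minimum at 10 weeks alone, was at 0.924, 0.873 and 1.74 FPKM. Tsku, of the secreted signalling inhibitor tsukushi, was at 6.15, 4.51 and 6.04 FPKM, and neither was called. Within the chromosome 13 span Ogn per Aspn was 0.436 in E18.5 skin, 0.346 in P3 skin and 3.86 in 10-week skin, so that Ogn was above Aspn at 10 weeks and below it at both earlier ages. Ogn per Omd was 17.5, 10.3 and 33.5.

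Against type I collagen at the same age, all members but Podn were within 2-fold between P3 and E18.5, and all but Bgn and Aspn were past it between 10 weeks and P3. Col1a1 and Col1a2, the chains of type I collagen that forms most dermal fibrils, together stood at 2190 FPKM in E18.5 skin, 833 in P3 skin and 899 in 10-week skin. Dcn per 100 FPKM of this sum was 26.1 in E18.5 skin, 24.6 in P3 skin and 247 in 10-week skin. Log2 changes of ratios were taken without an added FPKM, unlike the differences above, so those of low genes are not muted. Between P3 and E18.5 the ratio of Dcn differed by -0.09 on the log2 scale, and between 10 weeks and P3 by 3.33. Ogn per 100 FPKM of collagen I was 2.54, 2.08 and 28.9, and Lum was 15.9, 11.5 and 46.9. Aspn was at 5.82, 6.01 and 7.50, and Bgn was at 8.45, 13.3 and 12.7.

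Over the 10 members, the log2 change of this ratio at P3 against E18.5 lay between -0.47 and 1.38, with a median of 0.32. The 1 member past 2-fold was Podn, at 0.113 in E18.5 skin, 0.295 in P3 skin and 1.57 in 10-week skin per 100 FPKM of collagen I. At 10 weeks against P3 the ratio was past 2-fold upward for 8 of 10, with a median of 2.25. The 8 are those called by FPKM itself.

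With Pdgfra as the reference, a receptor that marks fibroblasts of the dermis, fewer members stood apart at 10 weeks. Pdgfra stood at 30.8 FPKM in E18.5 skin, 10.6 in P3 skin and 52.6 in 10-week skin. Dcn per FPKM of Pdgfra was 18.6 in E18.5 skin, 19.3 in P3 skin and 42.2 in 10-week skin, and Ogn was 1.81, 1.63 and 4.95. These were the 2 members past 2-fold upward at 10 weeks against P3, with log2 changes of 1.13 for Dcn and 1.60 for Ogn. Bgn, at 6.01, 10.5 and 2.17 per FPKM of Pdgfra, and Aspn, at 4.14, 4.71 and 1.28, were the 2 past it downward (-2.27 and -1.88). Lum was at 11.3, 9.02 and 8.02, with a log2 change of -0.17 at 10 weeks against P3, beside -0.16 for Kera, -0.11 for Omd and 0.22 for Podn. At P3 against E18.5, Podn (1.52) and Prelp (1.02) were past 2-fold upward, and 0 downward. At 10 weeks against E18.5, Prelp (1.80), Podn (1.74), Ogn (1.45) and Dcn (1.18) were past it upward. Aspn (-1.69) and Bgn (-1.47) were past it downward. The choice of reference gene therefore decides how many members pass 2-fold in the adult, and neither reference measures the amount of fibroblast RNA.

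**Figure D4:**
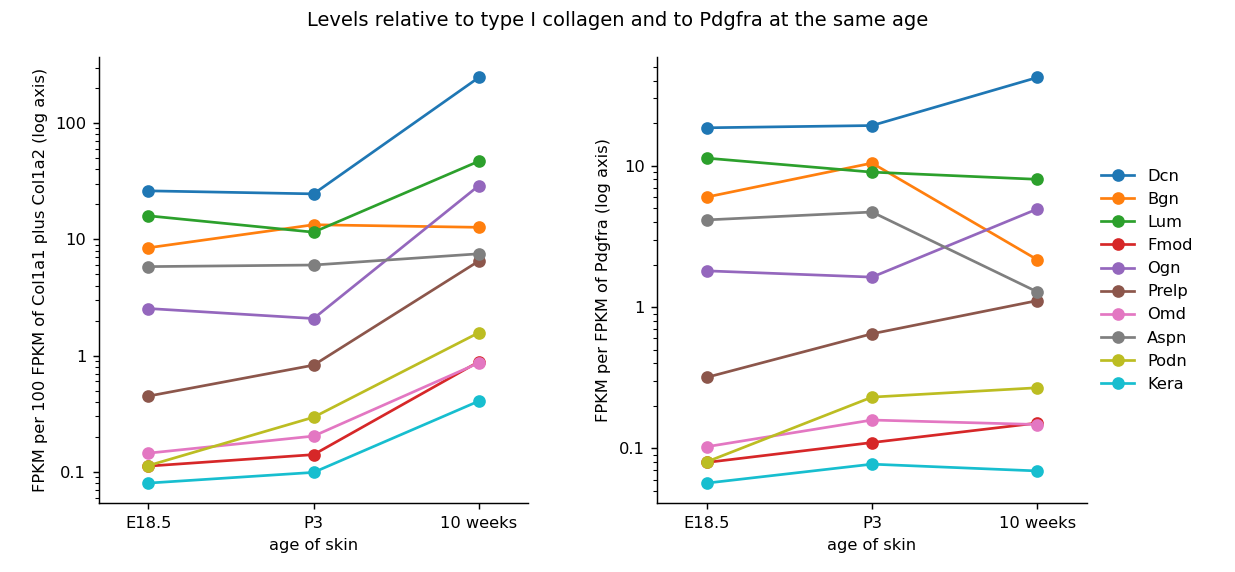
FPKM of each gene per 100 FPKM of Col1a1 plus Col1a2 (left) and per FPKM of Pdgfra (right) at the same age, on log axes, for E18.5, P3 and 10 weeks. Against collagen, Dcn was at 26.1, 24.6 and 247, and against Pdgfra the lines of Bgn and Aspn each have their low point at 10 weeks (2.17 and 1.28).

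Other tissues of the skin moved between the same ages. Of 10 skeletal muscle markers, 10 were called lower in P3 than in E18.5 skin, and 8 were called higher and 1 lower at 10 weeks than at P3. With Myh3, an embryonic myosin, under 1 FPKM at 10 weeks, their summed level was 4733 FPKM in E18.5 skin, 397 in P3 skin and 19686 in 10-week skin. The 8 adipocyte markers summed to 4347, 1566 and 6221 FPKM, and the 7 endothelial markers to 205, 66.1 and 162. The 8 keratinocyte markers summed to 3946, 13425 and 4729 FPKM, with 6 higher and 0 lower at P3, and 1 higher and 5 lower at 10 weeks against P3. The higher one was Krt77 (18.7, 224 and 963 FPKM), and the P3 sum is carried mostly by Lor, Krt5 and Krt14. The 11 fibroblast markers summed to 2630, 1020 and 2120 FPKM, of which Col1a1 and Col1a2 made up 2190, 833 and 899. Of the 11, 6 were lower and 0 higher at P3, and 7 were higher and 0 lower at 10 weeks against P3. Between 10 weeks and E18.5, 4 were higher and 3 lower, the lower ones being Twist2, Col1a1 and Col1a2. Col1a1 and Col1a2 carried most of the sum at E18.5 and P3. From P3 to 10 weeks the largest rises in FPKM were those of Dpt (73.9 to 668) and Pi16 (8.28 to 208). The 6 macrophage markers found summed to 185, 77.8 and 1899 FPKM, the 6 mural markers to 133, 136 and 332, and the 6 Schwann cell markers to 33.6, 68.9 and 271. Cartilage and bone markers summed to 10.7, 17.4 and 10.1 FPKM, and most of each sum was Sox9 (7.01, 14.7 and 8.92 FPKM). Col2a1 was at 0.0445, 0.139 and 0.0149 and Ibsp at 2.11, 0.0426 and 0, with Matn3 and Bglap also listed at 0 at 10 weeks. The part of tissue make-up in the courses of the proteoglycans was not tested.

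Collagen genes were mostly lower or uncalled at P3, and none was called higher in the adult. Of 13 genes that could be compared in a list of fibrillar and fibril-associated collagens, 6 were lower in P3 than in E18.5 skin and 1 was higher (median -0.92). The list also holds Col6a1 and Col6a2, of type VI collagen, which belongs to neither class, and both are among the lower ones (-1.24 and -1.09). The E18.5 value of Col3a1 is a failed estimate and was left out. Of 14 compared at 10 weeks against P3, 0 were higher and 2 lower (median 0.07). The highest differences then were those of Col14a1, whose product sits on fibril surfaces, at 44.9, 23.2 and 46.8 FPKM (0.98), and of Col5a3 (0.64). The 2 lower ones were Col12a1, another fibril-associated collagen, at 25.0, 21.5 and 3.99 FPKM (-2.17), and Col11a1, which starts fibrils, at 3.06, 8.69 and 1.41 FPKM (-2.01). Col11a1 was also the 1 collagen gene higher in P3 skin than at E18.5 (1.26), and next to it Col9a3, better known from cartilage, differed by -0.16 (2.20, 1.86 and 0.879 FPKM). The lowest at P3 were Col5a2, a chain of the fibril-starting type V collagen, at 143, 51.0 and 71.4 FPKM (-1.47), and Col1a2 (-1.40). Between 10 weeks and E18.5, 0 were higher and 6 lower, Col6a2 (-1.21) among them.

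Many genes of a list for collagen processing and crosslinking were called in both directions that members took. The list also holds the matrix proteins Fn1, Tnxb, Dpt, Thbs1 and Thbs2. Fn1 and Dpt are among the genes counted as lower at P3, and all of these but Thbs1 among those higher at 10 weeks than at P3. Of 27 expressed, 12 were lower in P3 than in E18.5 skin and 0 higher (median -0.96), and 17 were higher and 0 lower at 10 weeks than at P3 (median 1.10). The extremes at P3 were Pcolce, an enhancer of procollagen cleavage, at 158, 44.4 and 143 FPKM, and P4ha2, a collagen prolyl hydroxylase, at 34.1, 9.39 and 20.2 FPKM. At 10 weeks against P3 the highest differences were those of Pcolce2 (3.05, 2.41 and 98.9 FPKM) and Dpt, of dermatopontin, a partner of decorin in the dermis (191, 73.9 and 668 FPKM). The log2 differences of Dpt, -1.36 at P3 against E18.5 and 3.16 at 10 weeks against P3, stood beside -1.48 and 3.43 for Dcn. At the other end were Adamts14 (-0.31) and P4hb (-0.23). Thbs1 had the largest positive difference at P3 (0.23). In adult against E18.5 skin, 6 were higher, Tnxb, Dpt and Thbs2 among them, and 0 lower. The lowest were Lepre1 (-0.95) and Lox, of lysyl oxidase, at 50.4, 20.9 and 29.5 FPKM (-0.75).

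Enzymes that build the sugar chains were called more in comparisons with adult skin than at P3 against E18.5, as were genes as a whole. Of 20 expressed enzymes of dermatan and chondroitin sulfate, 0 were called at P3 against E18.5. At 10 weeks against P3, 6 were higher and 0 lower, with a median of 0.53, where 19.8% of all genes were higher. They included the sulfotransferase Chst12 (10.8, 5.98 and 18.5 FPKM) and Csgalnact2, which starts and extends the chain (10.8, 7.26 and 20.4 FPKM). Both epimerases that turn chondroitin into dermatan sulfate were among them, Dse at 15.2, 10.0 and 26.1 FPKM and Dsel at 9.76, 9.27 and 21.4 FPKM. The sulfotransferases Chst7 (1.21) and Ust (1.16) were the others. The lowest differences were those of Csgalnact1 (-0.96) and Chst3 (-0.72). Between 10 weeks and E18.5, Ust (1.16) and Dsel (1.06) were the 2 of 20 that were higher, where 16.1% of all genes were higher. In that comparison 0 were lower, Chsy1 being lowest (-0.65). At P3 against E18.5 the range ran from -0.76 for Chst12 to 0.73 for Fam20b, a kinase of the linker sugar. Of 6 expressed enzymes that act on keratan sulfate chains and related sugars, the sulfotransferase Chst1 was lower in P3 than in E18.5 skin (6.87, 2.01 and 12.9 FPKM). At 10 weeks against P3, Chst1 (2.21) and the fucosyltransferase Fut8 (1.54) were higher, and 0 were lower, the lowest being Chst2 (-0.68) and B3gnt2 (0.34). In adult against E18.5 skin, Fut8 was higher (1.25) and Chst2 lower (-1.19).

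Proteoglycans of other families were mixed. Of 22 expressed, 2 were higher in P3 than in E18.5 skin and 5 lower, where 9.56% of all genes were higher and 9.42% lower. At 10 weeks against P3, 6 were higher and 3 lower, where 19.8% of all genes were higher and 9.98% lower. Vcan, the large chondroitin sulfate proteoglycan of embryonic matrix, was at 49.5 FPKM in E18.5 skin, 19.8 in P3 skin and 13.4 in 10-week skin, and Gpc3, a growth-restraining glypican, at 242, 71.1 and 75.0. The epithelial syndecan Sdc1 was at 60.8, 186 and 114 FPKM, higher in P3 skin than at E18.5 (1.60), as was Sdc4 (32.4, 74.4 and 74.5 FPKM; 1.17). Besides Vcan (-1.28), Gpc3 (-1.75) and Srgn (-1.81), the lower ones at P3 were Gpc6 (-1.21) and Tgfbr3 (-1.08). Between 10 weeks and E18.5, Sdc3 (1.94), Sdc4 (1.18) and Srgn (1.08) were higher, and Vcan (-1.81) and Gpc3 (-1.68) lower. The highest differences at 10 weeks against P3 were those of Srgn, the proteoglycan of blood cell granules (35.0, 9.28 and 75.1 FPKM; 2.89), and Sdc3 (9.57, 6.01 and 39.5 FPKM; 2.53). At the other end were Agrn (-1.07), Cd44 (-1.07) and Bcan (-1.04), of which Bcan passed the minimum through its P3 level alone (1.27 FPKM). Esm1 (0.298, 0.113 and 1.30 FPKM), among the 6 higher at 10 weeks than at P3, passed it through its 10-week level alone.

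RNA of genes for proteins that members bind or signal through was also measured. Of 17 genes, 2 were higher and 2 lower in P3 than in E18.5 skin, where 9.56% of all genes were higher and 9.42% lower. At 10 weeks against P3, 7 were higher and 1 lower, where 19.8% of all genes were higher and 9.98% lower. The biglycan receptor Tlr4 was at 1.87 FPKM in E18.5 skin, 0.651 in P3 skin and 14.7 in 10-week skin, and its co-receptor Cd14 at 5.58, 2.50 and 47.2. These are also genes of macrophages, of which 6 of 6 markers found were higher at 10 weeks than at P3. Egfr, to which decorin can bind, was at 7.83, 22.5 and 24.4 FPKM. The growth factor genes Tgfb1 (12.9, 12.8 and 19.2 FPKM), Tgfb2 (4.90, 4.81 and 7.29) and Tgfb3 (12.9, 12.0 and 11.2) were not called in any comparison. Bmp2 (5.83 FPKM at 10 weeks and 12.8 at P3; -1.02) was the 1 gene lower in the adult than at P3. At P3 against E18.5, Egfr (1.41) and Bmp2 (1.13) were higher, and the endothelial receptor Kdr (-1.61) and Wisp1 (-1.07) lower. In adult against E18.5 skin, 8 were higher, with Cd14 (2.87) and Ctgf (2.61) at the top, and Wisp1 lower (-1.84).

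**Figure D5:**
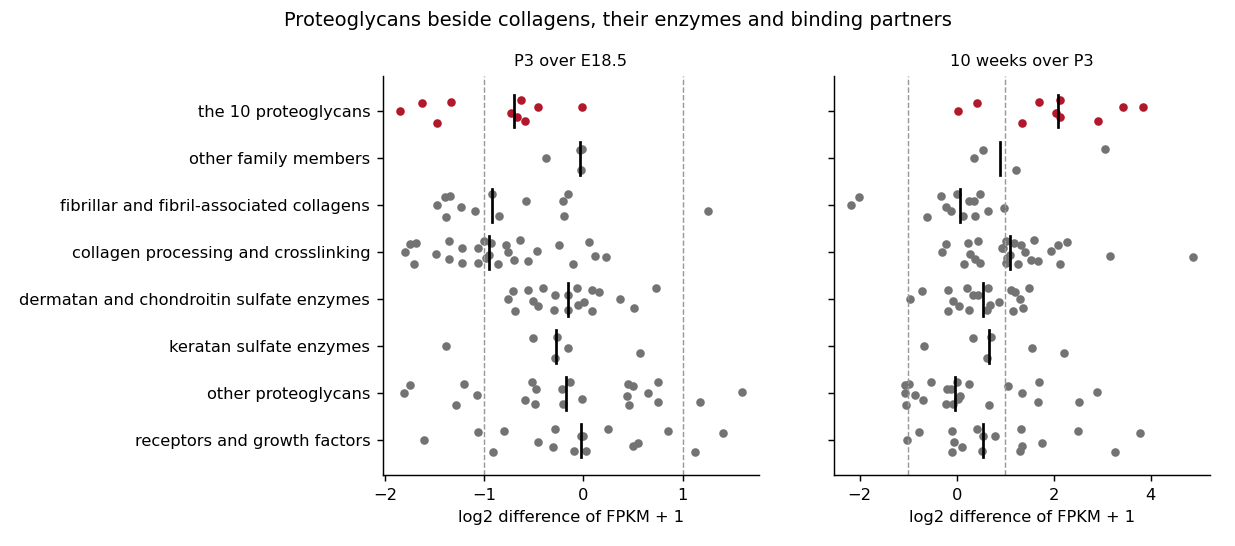
Log2 differences of FPKM + 1 at P3 over E18.5 (left) and 10 weeks over P3 (right), 1 point per expressed gene and black bars for list medians, with dashed lines at 2-fold. The 10 proteoglycans, in red, had medians of -0.70 and 2.09, and the collagens -0.92 and 0.07.

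Likeness of course was measured as the distance between centred log2(FPKM + 1) values over the 3 ages, where 0 means the same course. Among members, Fmod and Omd (0.26), Omd and Kera (0.28), and Dcn and Ogn (0.29) were nearest, and Bgn and Ogn farthest apart (2.81). Bgn was nearest to Aspn (0.43). Among genes with a mean of at least 10 FPKM, the nearest to Bgn was Mfap4, a microfibril-associated gene, at 164 FPKM in E18.5 skin, 97.3 in P3 skin and 99.8 in 10-week skin (distance 0.01). Nearest to Ogn was Clec3b, of tetranectin, at 132, 38.5 and 644 FPKM (0.14), and to Lum was Pnpla2, a lipase of fat and muscle, at 105, 28.5 and 125 FPKM (0.02). Nearest to Dcn was Tyrobp, an adaptor of myeloid cells, at 76.2, 28.7 and 298 FPKM (0.08). For Aspn it was BC002163 (0.04), for Prelp Rasd1 (0.10), for Podn the joint entry of Tgoln1 and Tgoln2 (0.11), for Fmod Pip4k2a (0.03), for Omd Tspan13 (0.02) and for Kera 1110018J18Rik (0.02). The next 2 were Tmem182 and Acyp2 for Dcn, Mrpl34 and Nid2 for Bgn, Pcx and Ramp2 for Lum, and Ms4a6d and Ak1 for Ogn. With 3 points a close match is easily had: 14 of 7571 genes lay within 0.25 of Dcn, 13 of Ogn, 15 of Lum, 22 of Prelp, 34 of Aspn and 85 of Bgn. For the low genes it was 17 of 7572 for Podn, 62 for Fmod, 82 for Omd and 161 for Kera.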

How the data were processed

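RNA was extracted with Trizol and libraries were made with an Illumina TruSeq kit, per the labels' protocols. The deposited values are FPKM, averages per age per the file headers. The tools TopHat2 2.0.7 and Cufflinks 2.1.1 and the mouse build mm9 were used, per the submitters' processing notes. The annotation, strand setting and read numbers were not given in the sources, so depth is unknown.

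Rows were joined by symbol. Values of 0 marked as failed (3 at E18.5, 7 at P3) were left out. With 1 value per age no test was run. The log2 ratio used a pseudocount of 1 FPKM, a minimum of 1 FPKM and a 2-fold threshold. Changes of the ratios to collagen I and to Pdgfra used no pseudocount. The arithmetic of the call was checked on made-up, noise-free changes of highly expressed genes. Such a check says nothing of errors of the call at low levels. The calculation used Python 3.11.15 and pandas 2.3.3. Coordinates are mm9, with 1 added to each start, because the RefSeq gene length matched end minus start in 6114 genes, and that value plus 1 in 421. GRCm38.p6 served only for promoters and gene order. The 7 context lists and 10 marker lists held 212 entries, of which 208 were found; Dpt, Tnxb, Kdr, Acan, Cspg4, Col2a1, Col1a1 and Col1a2 are in more than 1 list. Members and lists were chosen with earlier results of these data known. The rule for names was all members, the 2 highest and 2 lowest genes of each context list per comparison, any called where 5 or fewer were, and the 3 genes most like each member in course; Dse, Col3a1, the Tgfb genes and single marker genes were added after their values were seen. Not every gene that the rule gives is printed. Alternatives were other pseudocounts, scalings and minimums.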

Additional observations from a re-analysis of the deposited data

How the results depend on the processing

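Each count and median of the 10 genes was recomputed with pseudocounts of 0.1 and 5 FPKM, scaling by the median of ratios, by the upper quartile or by the sum of all FPKM, no minimum or a minimum of 5 FPKM, and without the X-linked Bgn. Of 72 such values, 66 kept their direction, their side of 2-fold or, for counts, stayed within 1.5 times. That rule passes counts that did change. With a pseudocount of 0.1, 6 members in place of 4 were lower at P3. With a pseudocount of 5, 6 in place of 8 were higher at 10 weeks than at P3, and 4 in place of 6 than at E18.5. The shares of all genes were not recomputed. At 10 weeks against E18.5, 1 member (Aspn) was lower under the median of ratios, the upper quartile and the sum, where 0 were with the deposited values. The median of that comparison was 0.72 with a pseudocount of 5 and 0.98 with the upper quartile, both under the threshold. The median at P3 against E18.5 was -1.01 with a pseudocount of 0.1, past it. Of 150 differences of single members, 138 kept their side of the threshold, 6 no longer passed and 6 newly passed. A sign changed in 4, all under the threshold: Bgn at 10 weeks against P3 under the 3 scalings (-0.06, -0.05 and -0.08, against 0.04 as deposited) and Lum at 10 weeks against E18.5 under the upper quartile (-0.03, against 0.27). The median of ratios shifts log2 ratios by -0.12 at P3 against E18.5, -0.10 at 10 weeks against P3 and -0.22 at 10 weeks against E18.5; the upper quartile shifts the last by -0.30. Omd at 10 weeks against E18.5 then falls under the threshold (0.89 and 0.83). A minimum of 5 FPKM removes Kera. No replicate could be left out, since the values are averages. No paired analysis was possible because each age has 1 value.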

Other observations

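Among the promoter windows, Omd and Ogn, neighbours on chromosome 13, share a run of 11 bases, TTGAATTCCAC, that 4 of the 32851 windows hold on either strand. It was singled out after the windows had been compared with each other. The longest run shared by any pair of the members with a window, which leaves out Dcn and Lum, was between Fmod and Podn. It had 13 bases, and 9 windows held it.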
